A study of Mus musculus with 5 samples.

Results

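Interferon-stimulated genes are the genes that a cell switches on when an interferon binds its surface receptor. A list of 39 of them, given by name, was followed here; 38 were found among the 31253 genes of the count tables, and Mx1 was not in the gene list. They were measured in lymphoid and epithelial cells of the kidney and small intestine of male mice aged 8 to 10 weeks, by single-cell RNA sequencing on the BD Rhapsody platform, which counts transcripts by unique molecular identifiers (UMIs).

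The injury was unilateral ureteral obstruction (UUO), in which the left ureter is tied off and the kidney behind it becomes inflamed and scarred. 4 libraries were analysed, 1 per group: wild-type kidney at day 14 after UUO, kidney at day 3 after UUO from mice labelled as a PD-1 knockout (B6.Cg-Pdcd1tm1.1Shr/J), wild-type small intestine after a sham operation that only exposed the ureter, and wild-type small intestine at day 3 after UUO. The remaining library, wild-type kidney at day 3, was not analysed here. The kidney libraries are labelled as innate lymphoid cells. The sources used here do not say how many mice each library holds, and the labels describe the digestion of an artery, which is neither organ.

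After cells with few UMIs or genes were left out, 3501 to 6960 cells per library were kept, with a median of 1824 to 2177 UMIs per cell and 8717372 to 16466027 UMIs per library. Cells were put into classes by UMIs of lineage markers, none of which is one of the 38 genes. The kidney label did not match most of its cells: CD8 T-gated cells made up 13.4% of kept cells in the wild type and 38.5% in the knockout-labelled library, while ILC2-gated cells, with the receptor gene Il1rl1 at 1924 and 2304 counts per 1000000 UMIs (CPM), numbered 89 and 121. The sham and UUO intestinal libraries shared 158 cell barcodes, against 22 to 27 for the other pairs whose barcodes were compared, which did not include the knockout-labelled library.

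The targeted gene Pdcd1 was counted in the library labelled PD-1 knockout, at 264 CPM (95% Poisson interval 251 to 278) in CD8 T-gated cells, against 138 CPM (119 to 160) in the wild type. A tag outside the deleted part of a gene checks nothing, so the genotype is given by its label throughout. That label and the day after UUO differ together between the kidney libraries and cannot be told apart.

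With 1 library per group there was no replicate and no test. Levels are CPM from the summed UMIs of a class and ratios are log2 of CPM; where 2 values stand side by side, the wild-type kidney or sham intestine comes first, and a ratio is the second over the first. The 95% intervals (exact Poisson for levels, exact binomial for shares and ratios) cover counting error only, not the difference between mice. For levels and ratios they treat each UMI as a separate draw. Where a few cells hold many of a gene's UMIs, they are therefore too narrow. A gene was called higher or lower when it differed by at least 1.5 times (0.58 on the log2 scale), and was counted as measured when it had at least 50 UMIs in both groups together.

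Type I interferons bind the receptor made of Ifnar1 and Ifnar2, interferon-gamma binds Ifngr1 and Ifngr2, and interferon-lambda binds Ifnlr1 with Il10rb. The type I and lambda receptors activate a complex that contains Stat2 and Irf9 and binds interferon-stimulated response elements (ISRE). The gamma receptor acts mainly through gamma-activated sites (GAS). The genes switched on include enzymes and binding proteins that block viral replication, the guanylate-binding GTPases, and the factors Irf1, Irf7, Irf9 and Stat2, which extend the response.

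Of the 39 genes, 29 had an entry in the RefSeq promoter table (mouse build GRCm38.p6). An ISRE-type run, GAAANNGAAA on either strand, was found in the 250 bases before the start of 15 of the 29 (51.7%), against 936 of all 27025 genes (3.46%). A GAS-type run, TTCNNNGAA, which reads the same on both strands, was found in 6 of 29 (20.7%) against 8.13% of all genes. Bst2, Gbp7 and Igtp held both. A match describes the letters and is not a measured binding site. The 160 bases before the start are shown for 4 genes that hold an ISRE-type run and were lower in the knockout-labelled CD8 T-gated cells, and for Irf1, which holds a GAS-type run and had a positive ratio there. They were chosen after their values were seen, and other genes go the other way. Cmpk2, also lower, held neither run. Gbp3 and Gbp2, with ratios of 0.80 and 0.30, hold ISRE-type runs, and Isg20 and Gbp7, with -0.51 and -0.58, hold GAS-type runs. Each reads 5′ to 3′ on the gene's strand, with the matches in capitals.
Isg15: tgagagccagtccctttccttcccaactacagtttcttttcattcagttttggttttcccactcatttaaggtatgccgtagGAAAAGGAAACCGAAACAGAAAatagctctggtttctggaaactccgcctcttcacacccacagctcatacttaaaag
Rsad2: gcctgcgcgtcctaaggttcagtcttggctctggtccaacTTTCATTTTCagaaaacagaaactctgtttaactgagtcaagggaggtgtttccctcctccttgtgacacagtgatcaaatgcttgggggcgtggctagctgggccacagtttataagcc
Oas3: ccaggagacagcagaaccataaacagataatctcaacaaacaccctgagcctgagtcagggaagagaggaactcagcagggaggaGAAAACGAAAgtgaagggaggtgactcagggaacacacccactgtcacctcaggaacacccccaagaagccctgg
Ifit3: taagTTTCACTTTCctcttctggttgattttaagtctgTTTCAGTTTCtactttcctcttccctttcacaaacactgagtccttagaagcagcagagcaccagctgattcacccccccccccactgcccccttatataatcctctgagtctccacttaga
Irf1: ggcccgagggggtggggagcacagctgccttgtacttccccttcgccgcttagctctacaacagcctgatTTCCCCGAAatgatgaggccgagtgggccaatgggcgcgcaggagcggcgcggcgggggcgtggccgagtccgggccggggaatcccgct

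Isg15 lies at chr4:156200819-156200978 on the minus strand, with 3 overlapping matches, the first at base -78 from the start. Rsad2 lies at chr12:26456453-26456612 on the minus strand with its match at -120, and Oas3 at chr5:120777660-120777819 on the minus strand with its match at -75. Ifit3 lies at chr19:34583369-34583528 on the plus strand with 2 matches, the first at -156. Irf1 lies at chr11:53769854-53770013 on the plus strand, with its GAS-type match at -90.

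**Figure D1:**
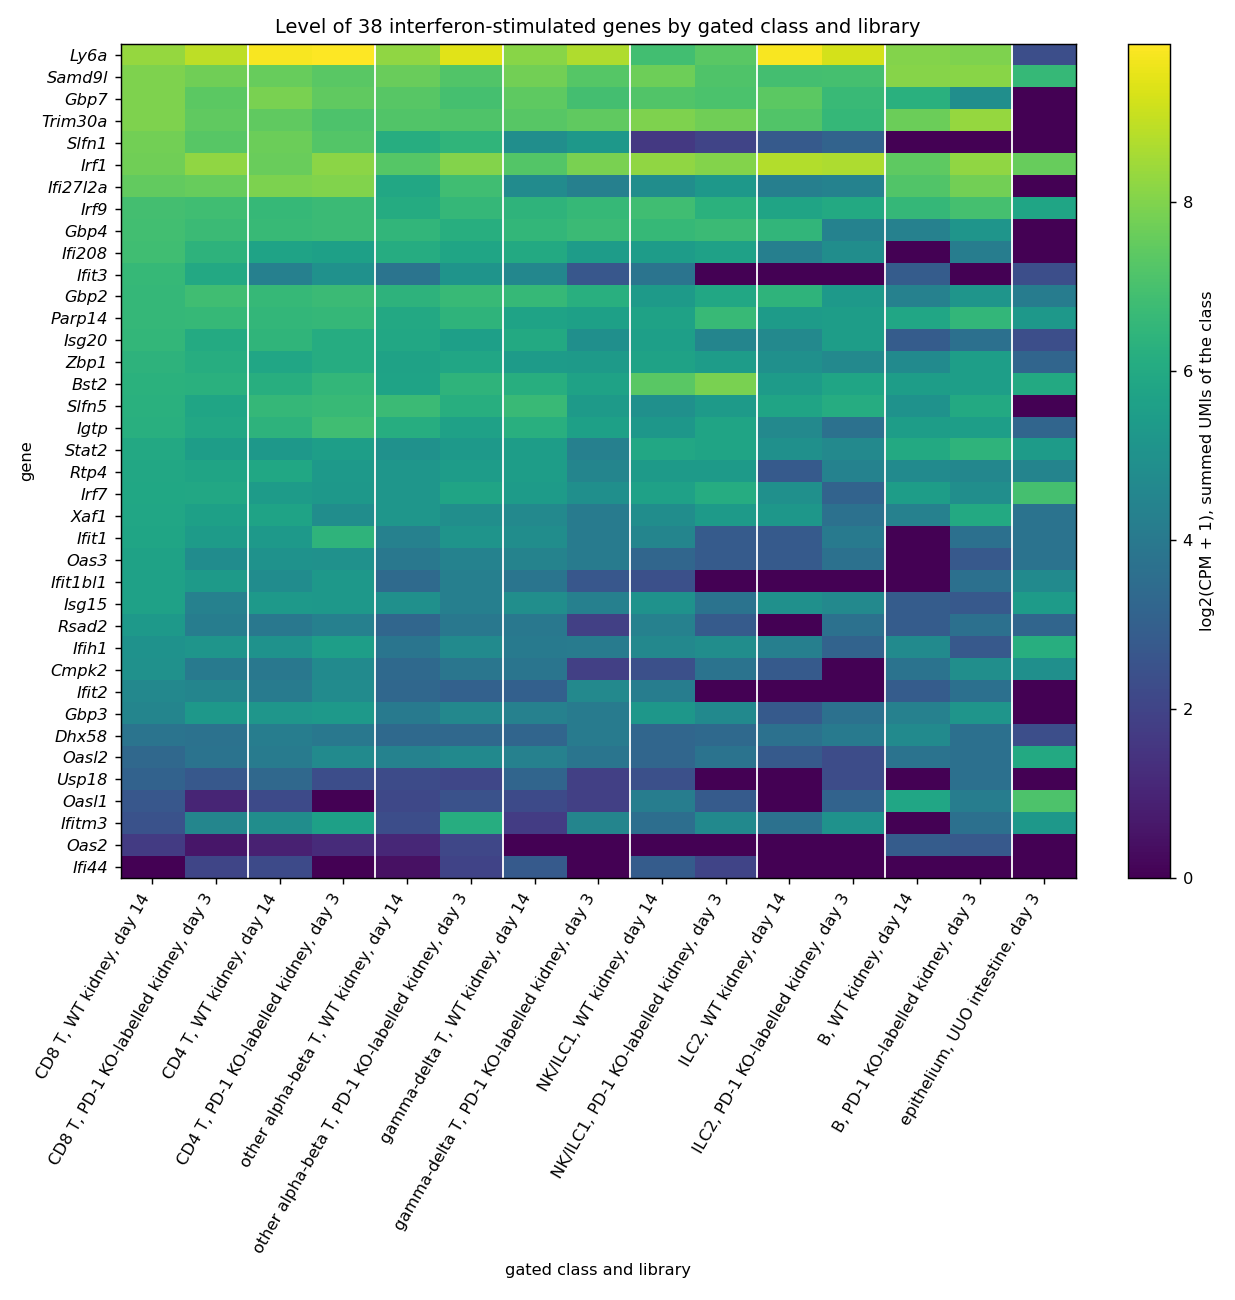
Level of each of the 38 genes (rows) in each gated class and library (columns), as log2(CPM + 1) of the summed UMIs of the class. Ly6a is bright in T-cell and ILC2 columns (872 and 936 CPM in CD4 T-gated cells) and dark in the column of intestinal epithelium after UUO (4.2 CPM, from 1 UMI).

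Summed over the 38 genes, CD8 and CD4 T-gated cells carried more interferon-stimulated transcripts than gamma-delta T-, ILC2- and B-gated cells. The sum was 3334 CPM (3236 to 3434) and 3087 CPM (3041 to 3133) in CD8 T-gated cells and 3478 CPM (3369 to 3589) and 3620 CPM (3485 to 3758) in CD4 T-gated cells. It was 2157 and 1988 CPM in gamma-delta T-gated cells, 2415 and 1971 CPM in ILC2-gated cells, and 1802 and 2298 CPM in B-gated cells. The remaining alpha-beta T cells had 2103 and 2754 CPM, and NK/ILC1-gated cells 2128 and 2095 CPM. A few genes weigh heavily in these sums. The 5 leading genes made up 38.4% in wild-type CD8 T-gated and 71.5% in wild-type ILC2-gated cells, with Ly6a first in both. In the intestine the sum was 1129 CPM (998 to 1272) in epithelium-gated cells after UUO. Organ and library cannot be told apart in this order.

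The inducible core, a narrower list of 18 counted genes (the Ifit, Oas, Oasl and sensor genes with Isg15, Irf7, Rtp4, Usp18, Rsad2, Ifi44 and Cmpk2), gave another order. It summed to 661 CPM (617 to 706) and 498 CPM (480 to 516) in CD8 T-gated cells, and to 440 and 524 CPM in CD4 T-gated cells. ILC2-gated cells had 150 and 155 CPM. Intestinal epithelium-gated cells after UUO reached 562 CPM (471 to 666), but with wide gates, chosen after the data were seen and holding 353 in place of 112 cells, 355 CPM (335 to 375), below the CD8 and CD4 T-gated values.

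Among the signalling factors, Irf1, an early interferon-gamma target, was counted in every class. It was at 425 and 405 CPM in ILC2-gated cells, 210 and 296 CPM in CD8 T-gated cells and 195 and 285 CPM in CD4 T-gated cells. Irf7, which amplifies type I interferon production, was at 57.2 and 60.3 CPM in CD8 T-gated cells and 122 CPM (81.5 to 175) in intestinal epithelium after UUO. Usp18, a protease that removes Isg15 from proteins, stayed low, at 7.63 and 5.61 CPM in CD8 T-gated cells.

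Several effectors differed widely between classes. Ly6a, which encodes the surface protein Sca-1, was at 872 and 936 CPM in CD4 T-gated cells and 869 and 608 CPM in ILC2-gated cells, against 316 and 475 CPM in CD8 T-gated and 117 and 161 CPM in NK/ILC1-gated cells. Slfn1, a Schlafen gene of T cells, was at 220 and 156 CPM in CD8 T-gated and 198 and 149 CPM in CD4 T-gated cells, but at 2.13 and 3.1 CPM in NK/ILC1-gated cells, with 0 UMIs in B-gated cells of both kidneys. Ifi27l2a was at 179 and 191 CPM in CD8 T-gated and 145 and 217 CPM in B-gated cells, and at 18 and 19.9 CPM in ILC2-gated cells. Bst2, or tetherin, which holds budding virus on the cell surface, was at 78.6 and 76.4 CPM in CD8 T-gated cells and 63 CPM (35.2 to 104) in intestinal epithelium after UUO.

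The Ifit genes, which bind viral RNA, and the Oas genes, which sense it, were unevenly spread. Ifit3 was at 96.9 and 60.8 CPM in CD8 T-gated and 18.9 and 30.5 CPM in CD4 T-gated cells, with 0 UMIs in ILC2-gated cells of both kidneys. Oasl1, which restrains Irf7 translation, stood at 139 CPM in intestinal epithelium after UUO and at 5.34 and 1.05 CPM in CD8 T-gated cells. Oas2 was at 2.29 and 0.526 CPM and Ifi44 at 0 and 3.15 CPM in CD8 T-gated cells, near the limit of counting. Reads shared by near-identical genes (Ifit1, Ifit1bl1, Ifit3, Ifi27l2a, Trim30a, the Gbp, Slfn and Oasl genes) may have been split between copies or dropped, so their single values are uncertain.

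Within each kidney library, CD8 T-gated cells were set against the other lymphocytes of that library. Against NK/ILC1-gated cells, 18 of 28 measured genes were higher in the wild type, where 14% of all genes were, and 15 of 34 in the knockout-labelled library, where 18.6% of all genes were. The 13 higher in both were Isg15, Isg20, Ifit1, Ifit3, Ifit1bl1, Oas3, Ifi27l2a, Gbp2, Rsad2, Slfn1, Ifi208, Zbp1 and Ly6a. The ratio of Slfn1 was 6.69, interval 4.20 to 11.99 in the wild type and 5.65, interval 3.17 to 10.96 in the knockout-labelled library, with 1 UMI in the NK/ILC1-gated cells of each. The ratio of Ifi27l2a was 2.69, interval 1.89 to 3.62 in the wild type and 2.36, interval 1.54 to 3.31 in the knockout-labelled library.

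Bst2 was lower in CD8 T-gated than in NK/ILC1-gated cells, with ratios of -1.03, interval -1.47 to -0.58 in the wild type and -1.63, interval -1.98 to -1.26 in the knockout-labelled library, but a few cells decided this. The NK/ILC1 gate held 22 of 269 and 16 of 169 cells with at least 2 UMIs of plasmacytoid dendritic cell markers (Siglech, Tcf4, Ly6d, Cox6a2, Klk1). All 5 markers were counted in the gate, summing to 1057 and 913 CPM against 11.4 and 26.8 CPM in CD8 T-gated cells. Those cells held 60 of 75 and 62 of 76 Bst2 UMIs, at 1094 CPM (835 to 1408) and 1269 CPM (973 to 1627), and 44 of 55 and 34 of 52 Ly6a UMIs. Their NK receptor gene Ncr1 was at 146 and 123 CPM, against 575 and 487 CPM in the rest of the gate.

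Without them Bst2 was at 36.3 CPM (20.3 to 59.8) and 51.2 CPM (28 to 85.9) in NK/ILC1-gated cells, and its ratio of CD8 T-gated to NK/ILC1-gated cells turned to 1.12 (0.33 to 2.00) and 0.55 (-0.21 to 1.44). CD8 T-gated cells were then higher for 20 of 28 and 16 of 34 genes and lower for 0, with 14.9% and 20% of all genes higher and 10.7% and 13.9% lower. The cells with plasmacytoid markers themselves summed to 4156 CPM (3634 to 4732) and 3869 CPM (3337 to 4462) over the 38 genes.

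Against ILC2-gated cells, 21 of 27 and 24 of 34 genes were higher in CD8 T-gated cells, 17 of them in both libraries, but 34.3% and 32.8% of all genes were higher as well. Ly6a went the other way, with a ratio of -1.46, interval -1.74 to -1.18 in the wild type and -0.36, interval -0.59 to -0.11 in the knockout-labelled library. Against CD4 T-gated cells, 7 of 30 and 4 of 34 genes were higher and 2 and 8 lower, with 8.1% and 12.6% of all genes higher and 8.5% and 8.88% lower. Ifit3 was higher in CD8 T-gated cells, by 2.36, interval 1.69 to 3.10 in the wild type and 0.99, interval 0.39 to 1.67 in the knockout-labelled library. Ly6a was lower in both, with ratios of -1.47, interval -1.64 to -1.30 in the wild type and -0.98, interval -1.10 to -0.86 in the knockout-labelled library.

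The genes were not spread evenly over cells. Each cell was thinned to 1000 UMIs, so that all were compared at 1 depth, and counted as a cell with many of the genes when at least 8 of the 38 were detected. In the wild-type kidney 40 of 660 CD8 T-gated cells met this, 6.06% (4.36 to 8.16), against 56 of 2591, 2.16% (1.64 to 2.80), in the knockout-labelled kidney. Without thinning the shares were 12% (9.7 to 14.7) and 10.5% (9.38 to 11.7), with overlapping intervals. Thinning left out 39 and 91 shallower cells. The threshold cuts a continuous range: 9 and 36 CD8 T-gated cells had 7 of the genes, 8 and 14 cells had 8, and the highest had 25 and 22.

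Other classes held fewer such cells or differed less between libraries. In CD4 T-gated cells they were 3.26% (1.94 to 5.10) and 3.83% (2.00 to 6.60), in gamma-delta T-gated cells 1.92% and 1.47%, and in the remaining alpha-beta T cells 1.41% and 2.1%. ILC2-gated and B-gated cells held 1 and 2 each. Of the NK/ILC1-gated cells 4 of 240 wild-type ones met it, 1.67% (0.456 to 4.21), and 0 of 157 knockout-labelled ones (0 to 2.32%). The intervals of both kidneys overlapped in each of these classes. In the intestine 0 of 69 epithelium-gated cells after UUO met it (0 to 5.21%).

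**Figure D2:**
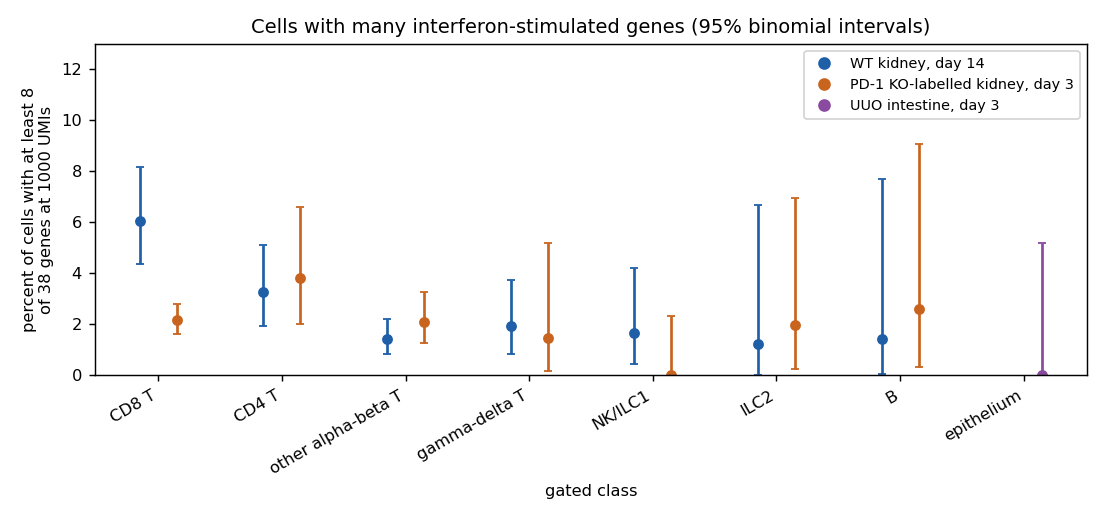
Percent of cells, thinned to 1000 UMIs, with at least 8 of the 38 genes, by gated class; points are libraries and bars 95% exact binomial intervals. CD8 T-gated cells of the wild-type kidney (6.06%) stand above those of the knockout-labelled kidney (2.16%), and in each of the other kidney classes the bars of both libraries overlap.

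**Figure D3:**
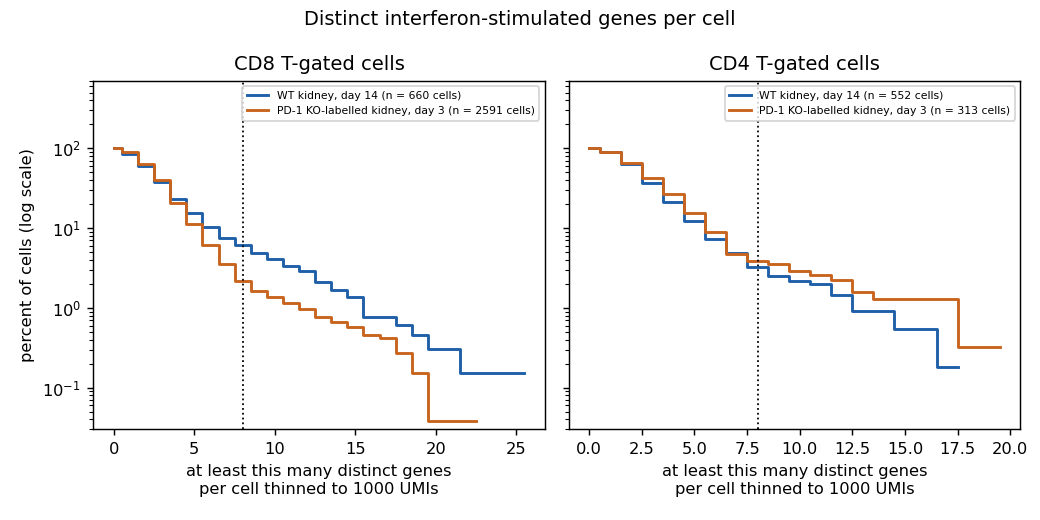
Percent of cells (log scale) with at least the number of distinct genes on the horizontal axis, per cell thinned to 1000 UMIs, in CD8 T-gated and CD4 T-gated cells; the dotted line marks 8 genes. The CD8 curves reach 25 and 22 genes.

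The 40 wild-type cells held 5.73% of the UMIs of the CD8 T-gated class, 29.4% of the UMIs of the 38 genes and 53.6% of those of the inducible core. The 56 knockout-labelled cells held 2.38%, 14% and 26.3%. Since the cells were chosen by these counts, this is a description. Rsad2, or viperin, whose product ends viral RNA synthesis, had 79.5% and 59.8% of its UMIs in them, Ifit3 70.5% and 38.4% and Oas3 63.1% and 22.5%. Irf1 lay at the other end, with 8.55% and 4.13%, and Ly6a between, with 22.6% and 7.76%. Median depth was 1790 UMIs in the wild-type cells and 1781.5 in the rest, and 2098.5 and 1937 in the knockout-labelled library.

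**Figure D4:**
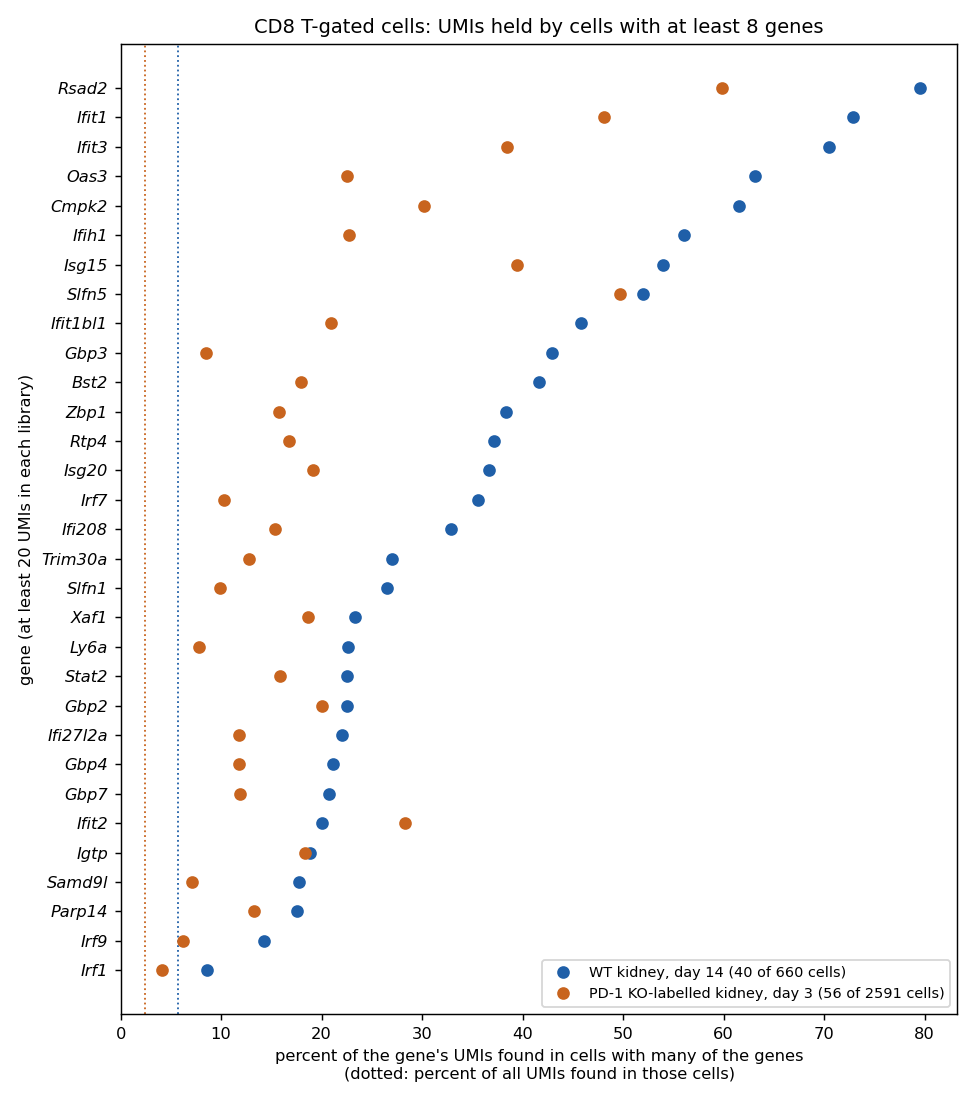
Percent of each gene's UMIs in CD8 T-gated cells that lie in cells with at least 8 of the genes, for the 31 genes with at least 20 UMIs in each library; dotted lines give the percent of all UMIs in those cells. Rsad2 has 79.5% and 59.8% of its UMIs there and Irf1 8.55% and 4.13%.

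Some genes outside the list, which did not choose the cells, were also higher in the same cells. Of 4415 such genes measured in the wild type, the interval lay above 0 for 4.62% and below 0 for 3.62%, and of 7951 in the knockout-labelled library without cells that carry endothelial UMIs, for 4.96% and 3.97%. By the fold alone more were lower than higher: 12.4% higher and 23% lower in the wild type, 14% and 21.5% in the knockout-labelled library. In wild-type CD8 T-gated cells the largest ratio to the rest of the class was that of Cxcl10, a chemokine that draws T cells, at 397 against 19.1 CPM (4.37, interval 3.53 to 5.23). The next were Daxx (3.59), Ddx60 (3.04), Phf11b (3.03), Ifi206 (2.86), Eif2ak2 (2.80), Herc6 (2.70), Rnf213 (2.62), Ddx58 (2.61), Irgm1 (2.60). In the knockout-labelled library, again without the endothelial-UMI cells, Cxcl10 was again first, at 1148 against 24.4 CPM (5.56, interval 5.20 to 5.91). It was followed by Ifit3b (4.91), Gbp6 (4.12), Ube2l6 (4.07), Iigp1 (4.06), Ifi211 (3.84), Arg1 (3.64), Eif2ak2 (3.31), Gbp5 (3.30), Clic4 (3.26). Arg1 rested on 14 UMIs in the cells with many of the genes and 50 in the rest. The number of cells that held these UMIs is not given here, and the part of RNA from other cell types was not tested. Ifit3b may share reads with Ifit3, a gene of the list. With the endothelial-UMI cells kept, of which 1 was among the 56, Sparc, Tm4sf1, Mgp and Aqp1 stood between Cxcl10 and Ifit3b. Among the lowest ratios was that of Slc25a4 in the wild type, with 1 and 170 UMIs (-3.37, interval -8.68 to -0.87). In the knockout-labelled library, with the endothelial-UMI cells kept, Spp1, which encodes osteopontin, was at 52.3 against 552 CPM (-3.40, interval -4.72 to -2.35). Without those cells Spp1 was not among the 10 lowest, which included Sytl2, with 1 and 434 UMIs (-3.29, interval -8.60 to -0.80).

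The receptor genes differed less. The ratio of Ifnar1 was 0.45, interval -0.39 to 1.18 in the wild type and -0.40, interval -1.14 to 0.25 in the knockout-labelled library, and that of Ifngr1 was 0.08, interval -0.20 to 0.34 in the wild type and -0.29, interval -0.53 to -0.07 in the knockout-labelled library (-0.19, interval -0.43 to 0.03, without cells with endothelial UMIs). Ifng, the interferon that T cells make, had a ratio of 0.40, interval -1.53 to 1.84 in the wild type and 0.80, interval -0.22 to 1.66 in the knockout-labelled library.

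Isg15 and Ifit3 also met in single cells over whole libraries. Of 153 wild-type kidney cells with an Ifit3 UMI, 36.6% (29 to 44.8) had one of Isg15, against 4.19% (3.66 to 4.78) of the other cells, at median depths of 1724 and 1826 UMIs. Of 314 such knockout-labelled cells 17.5% (13.5 to 22.2) did, against 2.77% (2.39 to 3.19), at 2195 and 2056 UMIs. In the intestine 7 of 16 sham cells with an Ifit3 UMI did, against 6.2% (5.42 to 7.05) of the others, at 2607 and 2037 UMIs. After UUO 11 of 33 did, against 5.45% (4.84 to 6.13), at 3611 and 2174 UMIs. The cells with an Ifit3 UMI were deeper there, and the part of depth was not tested.

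Between the kidney libraries, CD8 T-gated cells of the knockout-labelled day 3 library had lower levels of several strongly inducible genes than those of the wild-type day 14 library. Of 34 measured genes 5 were lower and 3 higher, where 7.63% of all genes were lower and 7.95% higher. The median ratio was -0.23, against -0.03 over all genes, and the counting interval lay below 0 for 13 genes (38.2%) and above 0 for 5 (14.7%), against 15.4% and 11.8% of all genes. All 5 lower genes belong to the inducible core, of which 14 were measured and 0 were higher. Genes short of 50 UMIs are not in these counts. The core list was chosen with earlier results of these data known. The cells with many of the genes held 53.6% and 26.3% of its UMIs in CD8 T-gated cells, so the 5 genes are not separate observations.

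Isg15, a ubiquitin-like protein attached to other proteins, was at 48.8 and 19.3 CPM (-1.34, interval -1.80 to -0.87). Rsad2 was at 38.1 and 17.2 CPM (-1.15, interval -1.66 to -0.63), and Cmpk2, a nucleotide kinase gene, at 30.5 and 15.2 CPM (-1.0, interval -1.56 to -0.42). These 3 had the lowest ratios of the 34. Oas3, which makes the messenger that activates RNase L, was at 50.3 and 26.6 CPM (-0.92, interval -1.34 to -0.48), and Ifit3 at 96.9 and 60.8 CPM (-0.67, interval -0.97 to -0.37). Stat2 lay just short of the fold, at 61.8 and 43.6 CPM (-0.50, interval -0.87 to -0.12), and Gbp7 at its edge, at 247 and 165 CPM (-0.58, interval -0.76 to -0.39).

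Other genes of the list had ratios near or above 0. Irf7 was at 57.2 and 60.3 CPM (0.08, interval -0.29 to 0.46), Bst2 at 78.6 and 76.4 CPM (-0.04, interval -0.35 to 0.28) and Gbp2 at 93.8 and 115 CPM (0.30, interval 0.02 to 0.59). Irf1 was at 210 and 296 CPM (0.50, interval 0.31 to 0.69). The 3 called higher were Ifitm3, which blocks viral entry, at 4.58 and 22.3 CPM (2.28, interval 1.12 to 3.75), Gbp3 at 21.4 and 37.3 CPM (0.80, interval 0.23 to 1.43) and Ly6a at 316 and 475 CPM (0.59, interval 0.44 to 0.74).

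Endothelial RNA moved with Ifitm3 and Ly6a. In the knockout-labelled library 6 of 2682 CD8 T-gated cells, with a median of 11458 UMIs, had at least 2 UMIs of 8 endothelial markers and held 72 of 127 Ifitm3 and 571 of 2711 Ly6a UMIs, while 0 of 699 wild-type cells did. The markers summed to 1.53 and 55.9 CPM. Without those cells the ratio was 1.10 (interval -0.11 to 2.61) for Ifitm3 and 0.27 (interval 0.12 to 0.43) for Ly6a. By the fold 2 genes were higher, Gbp3 and Ifitm3, and the interval of Ifitm3 included 0.

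Without the cells that had many of the genes, in both libraries, the median ratio was 0.03, 5 genes were higher and 2 lower, and the ratios of Ifit3 and Oas3 were 0.22 and 0.07. Those cells were chosen by these same genes and made up a larger share of the wild type, so leaving them out raises the ratios by construction, and the values are a description.

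**Figure D5:**
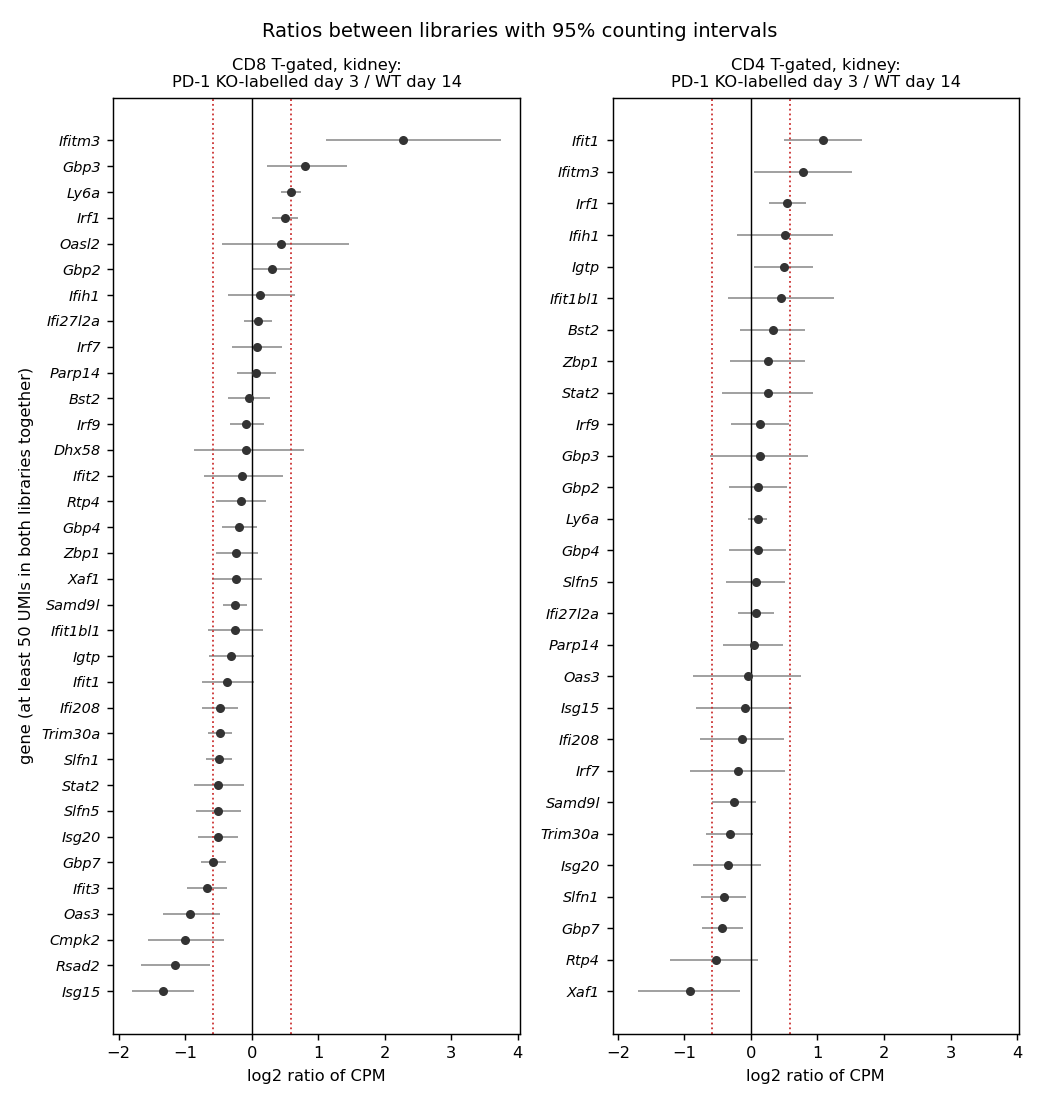
Log2 ratio of CPM with its 95% counting interval for each measured gene in CD8 T-gated and CD4 T-gated kidney cells (knockout-labelled day 3 over wild-type day 14); dotted lines mark 1.5 times. Isg15 lies at -1.34 in CD8 cells and Ifit1 at 1.08 in CD4 cells.

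In CD4 T-gated cells the same comparison gave few calls. Of 28 measured genes 2 were higher and 1 lower, where 5.88% of all genes were higher and 9.84% lower, and the median was 0.09 against -0.05. Ifit1 was at 39.6 and 83.6 CPM (1.08, interval 0.50 to 1.67) and Ifitm3 at 27.9 and 47.7 CPM (0.78, interval 0.04 to 1.52), with 0 cells carrying 2 or more endothelial UMIs in either library. Xaf1, which promotes cell death, was lower, at 52.2 and 27.9 CPM (-0.91, interval -1.70 to -0.16). The plasmacytoid dendritic cell markers summed to 17.1 and 207 CPM in these CD4 T-gated cells. Ratios without the cells that carry them were not computed.

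Isg15 was close to equal in CD4 T-gated cells, at 39.6 and 37.1 CPM (-0.09, interval -0.83 to 0.62), and Ifit3, short of 50 UMIs, was at 18.9 and 30.5 CPM. The ratios of Irf7 (-0.19, interval -0.92 to 0.52), Stat2 (0.26, interval -0.44 to 0.94), Bst2 (0.33, interval -0.16 to 0.81), Gbp2 (0.11, interval -0.33 to 0.54) and Ly6a (0.10, interval -0.04 to 0.24) had intervals that included 0. Irf1 was at 195 and 285 CPM (0.55, interval 0.27 to 0.83). Whether the CD8 and CD4 ratios differ was not tested, since each side has 1 library.

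The smaller classes measured few of the genes. In gamma-delta T-gated cells 1 of 15 was higher and 3 lower (7.72% and 15% of all genes), with a median of -0.37 against -0.08. Irf1 was at 151 and 235 CPM (0.64, interval 0.23 to 1.05), Slfn5 at 102 and 40.1 CPM (-1.34, interval -2.24 to -0.54), the exonuclease gene Isg20 at 62.3 and 29.4 CPM (-1.08, interval -2.17 to -0.13) and the GTPase gene Igtp at 73.1 and 48.2 CPM (-0.60, interval -1.45 to 0.18). In ILC2-gated cells 0 of 4 were higher and 1 lower (8.37% and 7.97% of all genes): Gbp7 at 168 and 103 CPM (-0.70, interval -1.53 to 0.12), while Ly6a was at 869 and 608 CPM (-0.52, interval -0.85 to -0.18). In B-gated cells 2 of 5 were higher and 0 lower (7.97% and 8.64% of all genes), Irf1 at 171 and 302 CPM (0.82, interval 0.13 to 1.55) and Trim30a at 202 and 314 CPM (0.63, interval -0.02 to 1.31).

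In NK/ILC1-gated cells 1 of 9 was higher and 0 lower (5.72% and 7.92% of all genes). This was Parp14, at 51.2 and 99.3 CPM (0.95, interval 0.15 to 1.78), and without the cells with plasmacytoid UMIs its ratio was 0.47 and 0 genes were called. Wide gates, chosen after the data were seen and with no limit on T-cell receptor transcripts, gave 688 and 674 cells, with 4 genes higher and 2 lower (4.67% and 5.31% of all genes). Isg15 was then at 30.7 and 11.3 CPM (-1.44, interval -2.38 to -0.57) and Ifi27l2a at 11.8 and 31.2 CPM (1.40, interval 0.52 to 2.35).

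Irf1 was above its wild-type level, beyond the counting interval, in the CD8, CD4, gamma-delta and B classes. In NK/ILC1-gated cells its ratio was -0.17, interval -0.58 to 0.23, and in ILC2-gated cells -0.07, interval -0.52 to 0.39. All these ratios come from the same pair of libraries and are not independent.

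Of the other genes of the pathway, the ligands were almost absent. Ifnb1, Ifna1, Ifna2, Ifna4, Ifne, Ifnk and Ifnl3 had 0 UMIs in every gated class of at least 50 cells, and Ifnl2 had 1. Ifng was at 42 and 49.2 CPM (0.23, interval -0.19 to 0.67) in CD8 T-gated cells and at 44.8 and 40.3 CPM in NK/ILC1-gated cells. Ifnlr1 had 0 to 2 UMIs in each lymphoid class.

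Of the 6 receptor genes 5 were measured in CD8 T-gated cells, and 1 was lower, where 7.63% of all genes were. This was Ifngr2, the signalling chain of the interferon-gamma receptor, at 103 and 24.4 CPM (-2.08, interval -2.43 to -1.73). It was lower in CD4 T-gated cells too, 1 of 4 measured against 9.84% of all genes, at 185 and 90.2 CPM (-1.04, interval -1.46 to -0.64). The ligand-binding chain Ifngr1 was at 1582 and 1469 CPM (-0.11, interval -0.18 to -0.04) in CD8 T-gated cells, and Ifnar1 at 162 and 186 CPM (0.20, interval -0.01 to 0.42).

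Of the 9 kinases and factors 1 was called in CD8 T-gated cells (11.1%, where 7.95% of all genes were higher), Irf8, a partner of other interferon regulatory factors, which was higher at 29 and 48.5 CPM (0.74, interval 0.25 to 1.27). It was higher in CD4 T-gated cells as well, 1 of 8 measured (12.5%, where 5.88% of all genes were higher), at 23.4 and 47.7 CPM (1.03, interval 0.26 to 1.82). Plasmacytoid dendritic cell markers also differed in that class (17.1 and 207 CPM), and their part in the ratio of Irf8 was not tested.

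Of the 7 inhibitors 6 were measured in both T-cell classes, and 0 were called in CD8 T-gated cells. In CD4 T-gated cells 2 were higher, where 5.88% of all genes were: Socs3, a suppressor of cytokine receptors, at 134 and 219 CPM (0.71, interval 0.38 to 1.04) and the phosphatase gene Ptpn6 at 60.3 and 96.8 CPM (0.68, interval 0.19 to 1.18). Of 4 measured sensors 1 was lower in CD8 T-gated cells, where 7.63% of all genes were: Cgas, which detects DNA in the cytosol, at 26.7 and 15.8 CPM (-0.76, interval -1.34 to -0.15).

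A list of 44 further interferon-induced genes gave 3 higher and 3 lower of 41 measured in CD8 T-gated cells. That is 7.32% each way, near the 7.95% and 7.63% of all genes. The lower ones were Ifi206 at 137 and 73.1 CPM (-0.90, interval -1.16 to -0.64), Ifi213 at 164 and 93.6 CPM (-0.81, interval -1.04 to -0.57) and Ddx60 at 47.3 and 30.1 CPM (-0.65, interval -1.08 to -0.21). The higher ones were Ly6c1, with 1 and 96 UMIs, Ifitm2 at 6.87 and 19.6 CPM (1.52, interval 0.54 to 2.68) and Ifitm1 (0.59, interval -0.13 to 1.39). Without the 6 knockout-labelled cells with endothelial UMIs, Ly6c1 had 1 and 25 UMIs and fell short of the minimum, Ifitm2 had a ratio of 1.09, interval 0.10 to 2.27, and 2 of 40 genes were higher and 3 lower. In CD4 T-gated cells 5 of 35 were higher (14.3%, against 5.88% of all genes) and 2 lower (5.71%, against 9.84%). The largest ratios were those of Ifitm2, at 8.09 and 135 CPM (4.06, interval 3.08 to 5.23), Ly6c2, at 36 and 210 CPM (2.54, interval 2.03 to 3.08), and Cxcl10, at 37.8 and 107 CPM (1.51, interval 0.95 to 2.08). Cells with plasmacytoid dendritic cell markers (17.1 and 207 CPM in CD4 T-gated cells) were not left out here, and their part was not tested.

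In the intestine, the epithelium-gated cells of the UUO library carried Irf1 and Oasl1 among the leading genes. Irf1 was at 189 CPM (138 to 253), and Oasl1, which encodes a protein related to the oligoadenylate synthetases, at 139 CPM (95.4 to 195) from 33 UMIs in 22 of 112 cells. Isg15 was at 42 CPM (20.1 to 77.2) and Gbp2 at 16.8 CPM (4.57 to 43). The guanylate-binding GTPase genes Gbp4 and Gbp7, and Trim30a, had 0 UMIs, which allows up to 12.6 CPM each. Several of these levels moved by more than 1.5 times with wide gates, to 57.1 CPM (49.4 to 65.7) for Oasl1, 63.5 CPM (55.4 to 72.4) for Irf7 and 17.6 CPM (13.5 to 22.6) for Isg15, with 39.5 CPM (33.2 to 46.7) for Bst2. Gbp4, Gbp7 and Trim30a then had 16, 12 and 29 UMIs.

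Between sham and UUO the epithelium gate held 37 and 112 cells and measured Irf1 alone (-0.15, interval -1.20 to 1.07), which was not called (23.1% of all genes were higher and 13.8% lower). With wide gates, 128 and 353 cells measured 17 of the genes, of which 2 were higher and 1 lower (8.63% and 13.1% of all genes). Of those cells 43 and 71 carried barcodes found in both intestinal libraries, and their part in these ratios was not tested. Cmpk2 was at 14.1 and 32 CPM (1.18, interval 0.40 to 2.07), Stat2 at 21.7 and 33.8 CPM (0.64, interval -0.01 to 1.35) and Oasl2 at 72.5 and 41 CPM (-0.82, interval -1.23 to -0.40). Oasl1 was at 79.1 and 57.1 CPM (-0.47, interval -0.85 to -0.08) in these cells, below sham.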

How the data were processed

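Values are UMI counts per gene and cell, deposited by the authors as sparse matrices. Per the submitters' processing notes, CASAVA 1.8, UMI-tools, Seurat and mm10 were used; the sources used here name no aligner and no rule for reads shared by similar genes. The wild-type day 14 kidney matrix took its gene list from the other libraries: its mean levels followed those of the knockout-labelled kidney with r = 0.992 across genes, against 0.209 with the list shifted by 1. The wild-type day 3 kidney library was not analysed here. The 38 genes and all lists were chosen with earlier results of these data known.

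Cells with under 500 UMIs, under 250 genes or over 20% mitochondrial UMIs were left out. T cells needed 2 UMIs of CD3 genes and 1 of a receptor constant gene, and were split by Cd4 and CD8 UMIs or as gamma-delta. NK/ILC1, ILC2, B and myeloid cells needed 3 UMIs of their markers, and epithelium 4. Innate classes could hold at most 1 CD3 UMI and at most 1 UMI of Trac, Trbc1 and Trbc2. Epithelium could hold at most 1 UMI of Ptprc, Cd3e, Thy1 and Il7r. Cells that met several gates were set aside. No doublet caller was run; leaving out the 5% of cells with most UMIs was an alternative, beside other gate and UMI minimums, thinning depths, class totals and cell filters. UMIs were summed per class and library and divided by the class total. Named genes were up to 10 measured genes of the list per comparison with the largest ratio, with Isg15, Ifit3, Irf7, Stat2, Bst2, Ly6a and Gbp2 always, and up to 4 per pathway list, with Ifnar1, Ifngr1, Ifnlr1 and Ifng always; of these, those that bear on a result are printed, and other levels were chosen after their values were seen. A few genes and 1 cell class are not reported here. A count of 0 allows up to 3. Python 3.11.15, NumPy 2.4.6, SciPy 1.17.1, pandas 2.3.3 and matplotlib 3.10.9 were used, and the scripts were tested on simulated data.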

Additional observations from a re-analysis of the deposited data

How the results depend on the processing

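No paired analysis was possible because each group has 1 library. Of the main values recomputed under other settings, 192 stayed within their limits and 43 moved; of single genes, 932 stayed, 29 moved and 2 reversed, Ifit3 (0.22) and Oas3 (0.07) in CD8 T-gated cells without the cells with many of the genes, which were chosen by these same genes. Counts of genes called higher or lower are small and moved as follows. Without the cells with many of the genes, 5 were higher and 2 lower in CD8 T-gated, 1 higher and 3 lower in CD4 T-gated, 2 higher in NK/ILC1-gated, 1 higher in B-gated and 0 lower in ILC2-gated cells. With a minimum of 20 UMIs, 6 were higher in CD4 T-gated, 8 lower in gamma-delta T-gated, 4 lower in ILC2-gated and 1 lower in NK/ILC1-gated cells. With a minimum of 100 UMIs, where fewer genes are tested, 1 was higher and 0 lower in CD4 T-gated, 1 lower in gamma-delta T-gated, 0 lower in ILC2-gated and 0 higher in NK/ILC1-gated cells. Without the 5% of cells with most UMIs, 5 were higher in CD4 T-gated and 2 in NK/ILC1-gated cells. With every gate raised by 1 UMI, 1 was lower in epithelium-gated and NK/ILC1-gated cells, 1 higher in B-gated and 0 lower in CD4 T-gated cells. A class total without ribosomal, mitochondrial and haemoglobin genes gave 2 higher in gamma-delta T-gated cells. The following were chosen after the data were seen. Wide gates gave 2 higher and 1 lower in epithelium-gated, and 4 higher and 2 lower in NK/ILC1-gated cells. Without cells with endothelial UMIs, 3 were higher in NK/ILC1-gated cells, and without cells with plasmacytoid UMIs 0 were higher in NK/ILC1-gated cells.

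The share of CD8 T-gated cells with many of the genes was higher in the wild-type than in the knockout-labelled kidney at each setting: 1.86% and 0.708% thinned to 500 UMIs, 12% and 10.5% not thinned, 15.3% and 11.2% with at least 5 genes, and 2.88% and 0.965% with at least 12. Not thinned, the intervals (9.7 to 14.7 and 9.38 to 11.7) overlapped, so that difference lay within counting error. The sum over the 38 genes in CD8 T-gated cells was 3536 and 3194 CPM with every gate raised by 1 UMI and 3436 and 3014 CPM as a mean over cells; in the knockout-labelled library it was 3134 CPM with no filter on cells and 3001 CPM without cells with endothelial UMIs. The ILC2, B and epithelium classes, with 37 to 121 cells, measured 1 to 5 of the genes, so depth limits them most.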
